A study of Mus musculus with 10 samples.

Results

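NIH3T3 cells, a wild-type mouse embryo fibroblast line, were compared in 2 states at 33 °C that differ in their temperature history. In the cooled state, cells had been seeded at 37 °C for 4 h, kept at 38 °C for 16 h and then moved to 33 °C for 9 h. In the held state, cells had been seeded in the same way and kept at 33 °C for 16 h, with no move yet made. These are 2 of the 10 samples of the series, which follows a course from 38 to 33 °C and a course from 33 to 38 °C at 0, 1, 3, 6 and 9 h. They were chosen by their labels alone. The title of the held sample has a mistyped temperature, and its description places it at the start of the course from 33 to 38 °C. The comparison asks which genes had come to the level of cells held at 33 °C within 9 h of cooling and which still had the level of cells kept at 38 °C. RNA was total RNA depleted of ribosomal RNA, and reads were counted separately over the exons and the introns of each gene, so that mature and unspliced RNA could be set side by side.

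Mammalian cells answer mild cooling with a small set of RNA-binding proteins, of which CIRBP and RBM3 are the best known, and mild warming with chaperones driven by heat shock factor. Fibroblasts also make and crosslink the collagen matrix. They read stiffness and tension through YAP with its TEAD partners and through serum response factor, SRF, which answers to actin assembly. A change of temperature, serum or culture conditions can also set the circadian clock of cultured fibroblasts.

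Each of the samples compared holds 2 columns of counts from numbered series, as do the others in the fit once the third column of 2 samples was set aside, and the labels do not say whether these are separate cultures, so a sample counts once. Series 5 was set against series 2 (called the first pair) and series 11 against series 13 (called the second pair). The 4 columns held between 22403625 and 48004854 exon counts and between 15313374 and 25233405 intron counts. With 1 sample a state, a gene was called from the values alone when it differed by 2-fold or more in the same direction in both pairs, on log2 of library-scaled counts (CPM, each count relative to the size of its library) with a pseudocount of 0.1, and this call has no test. A second call came from edgeR's quasi-likelihood test on all 10 samples, as the fitted level at 9 h of cooling minus the fitted level at the start of the other course, and its p-value measures the scatter of samples around the fitted time lines. Fitted log2 differences are given with their standard error, and adjusted p-values are after Benjamini and Hochberg over all tested genes. Each series lies in 1 course, so a difference between series cannot be told apart from a difference between states. Hours since seeding, 29 in the cooled and 20 in the held state, cannot be told apart from it either.

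Of the 12 fibroblast markers, 11 were above 1 CPM in all 4 columns, and their summed level was 21200 and 23500 CPM in the cooled columns (series 5 and 11) and 29700 and 38600 CPM in the held columns (series 2 and 13). Markers of other cell types were low: epithelial markers summed to between 24.1 and 82.2 CPM, nearly all of it Krt14, with Epcam, Krt18 and Cldn4 at 0, and macrophage markers to between 6.64 and 22.6 CPM. Endothelial markers stayed at or below 8.23 CPM, adipocyte markers at or below 0.112 CPM and muscle markers at or below 12.1 CPM, with Myod1 and Myog at 0. In bulk RNA a lower level can come from fewer cells of a kind or from less RNA in each cell, and these cannot be told apart. The cooled column of series 11 stood apart from the other 3. It had the fewest exon counts of the 4, and introns took 40.6% of its counts, against 32.4% to 35.5% in the others. A transcript resembling ribosomal RNA, AY036118, took 1.68% of its exon counts and 3.8% of its intron counts, against at most 0.0268% and 0.0825% in the others.

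The cold-induced RNA-binding protein genes had come close to their held level. Cirbp encodes an RNA-binding protein whose level follows temperature. It lies on chr10:80165985-80172786, plus strand (GRCm38). Its exon level was 61.9 and 67.6 CPM in the cooled columns and 88.5 and 77.8 CPM in the held columns, from 3.46 and 5.33 CPM at the end of 16 h at 38 °C. The cooled values lay below the held values without overlap, with log2 differences of -0.51 and -0.20, and 91.6% of the log2 distance from the 38 °C level had been covered. The fitted difference of -0.44 ± 0.33 did not pass the test (adjusted p = 0.322, edgeR).

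The exon to intron ratio of Cirbp had also come near its held value. Exon reads per intron read numbered 7.20 and 7.10 in the cooled columns and 8.91 and 9.32 in the held columns, against 0.854 and 0.919 after 16 h at 38 °C. Its intron level differed little, at 8.61 and 9.53 CPM after cooling and 9.93 and 8.36 CPM when held. The fitted difference of the ratio was -0.51 ± 0.44 (adjusted p = 0.509, edgeR).

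Rbm3, a second cold-induced RNA-binding protein gene (chrX:8138975-8145880, minus strand), was further from its held level. It stood at 201 and 155 CPM after cooling and at 292 and 219 CPM when held, from 50.9 and 77.5 CPM at 38 °C. Both cooled values lay below both held values, with log2 differences of -0.54 and -0.49, and 74.3% of the distance had been covered. The fitted level was lower by test, at -0.81 ± 0.16 (adjusted p = 0.00391, edgeR). Rbm3os lies on the opposite strand, and the sources used here do not say whether counting used strand. Of the 10 genes on the list of cold-shock proteins 8 were tested, of which 1 was higher by the fit and 2, Rbm3 and Carhsp1, lower. The fit called 16.4% of all tested genes higher and 19.2% lower. Ybx1, which encodes a cold-shock domain protein that packages mRNA, was the higher gene, at 1073 and 1148 CPM against 827 and 818 CPM (fitted 0.39 ± 0.05, adjusted p = 0.000244, edgeR).

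**Figure D1:**
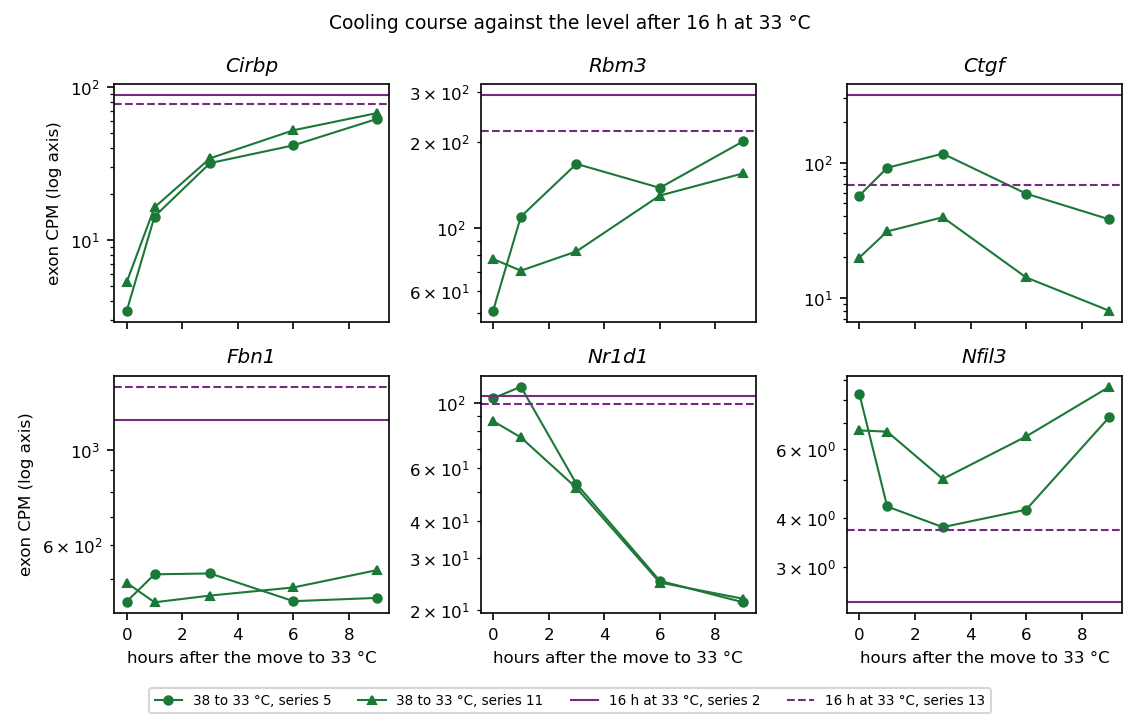
Exon level in CPM (log axis) of 6 genes over the hours after the move from 38 to 33 °C, with 1 line per series, and horizontal lines at the level of cells held at 33 °C for 16 h. Cirbp comes close to the held lines, Fbn1 stays near its starting level and Nr1d1 falls away from them.

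Over the transcriptome most genes were near the held level. Of 10174 genes tested on exons, 7499 (73.7%) lay within 1.5-fold of it in both pairs. The 2-fold call in both pairs took 95 genes (0.934%), 15 higher after cooling (0.147%) and 80 lower (0.786%). Each pair alone gave 514 genes (5.05%) and 384 genes (3.77%), and 20 genes differed by 2-fold in opposite directions in the pairs. The fitted levels differed for 3617 genes (35.6%), 1664 higher (16.4%) and 1953 lower (19.2%). Most of these differences were small, with a median size of 0.433 on the log2 scale. Of the 3617 genes, 2989 (82.6%) had the sign of the fit in both pairs. Over all tested genes the differences in the 2 pairs correlated at only 0.26. The columns of a sample were summed before the fit, so its p-value does not measure the spread between the pairs. Of the 95 genes called from the values, 91 were also called by the fit. Reads of a gene and of an overlapping neighbour may have been shared, since the sources used here give no rule for such reads.

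**Figure D2:**
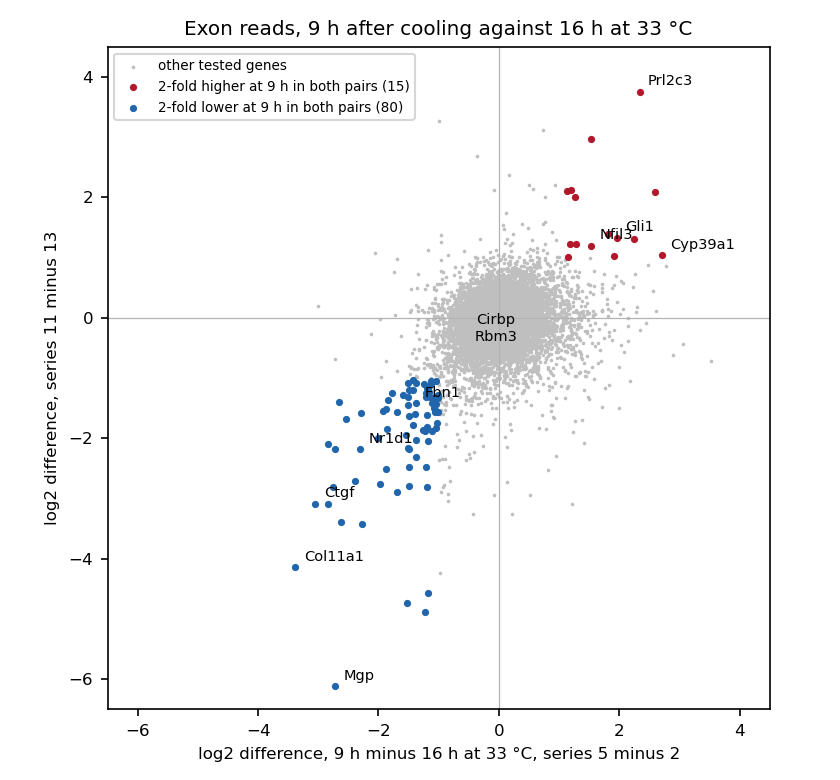
Log2 exon difference, 9 h after cooling minus 16 h at 33 °C, for each tested gene, in the pair of series 5 and 2 (horizontal axis) and the pair of series 11 and 13 (vertical axis). The 80 genes lower by 2-fold in both pairs are blue and the 15 higher genes red, and most other points (grey) lie near the origin.

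Targets of YAP and related matricellular genes, which encode secreted regulators of adhesion and growth factors, were lower: 6 of the 9 tested were called from the values in both pairs, and 6 were lower by the fit, against 0.786% and 19.2% of all tested genes. The list median was -1.20 in the first pair and -1.42 in the second, against 0.004 and -0.001 over all tested genes. When 16 h at 38 °C was set against 9 h at 38 °C in the same pairs of series, the list medians were 0.48 and 0.38, but single members differed in sign. Cyr61 differed by 0.82 and 0.81 there and Ankrd1 by 0.81 and 0.68, while Ctgf differed by 0.63 and -1.47, Thbs1 by 0.10 and -1.95 and Amotl2 by -0.18 and -0.23. Ctgf and Thbs1 were thus lower by over 2-fold in the second pair at both temperatures.

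Ctgf encodes the connective tissue growth factor (chr10:24595442-24598683, plus strand). It stood at 38.0 and 8.0 CPM after cooling and at 315 and 68.7 CPM when held. Within each pair the cooled value was far below the held value, with log2 differences of -3.05 and -3.09, while the level of series 5 and 2 was well above that of series 11 and 13 in each state. The fitted difference was -2.84 ± 0.59 (adjusted p = 0.00546, edgeR). Along the cooling course Ctgf went from 57.1 and 19.8 CPM at the start to 116 and 39.4 CPM at 3 h and then down to the 9 h values, which lay below the starting ones. Gm15270 overlaps it on the opposite strand.

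Cyr61, a matricellular relative of Ctgf, stood at 89.6 and 27.5 CPM against 341 and 80.8 CPM, lower within each pair (fitted -2.78 ± 0.63, adjusted p = 0.00815, edgeR). Thbs1, which encodes thrombospondin 1, an activator of latent TGF-beta, stood at 242 and 91.6 CPM against 683 and 508 CPM. Its fitted difference was -1.78 ± 0.21 (adjusted p = 0.000245, edgeR). Amotl2, a feedback regulator of YAP, was at 310 and 174 CPM against 714 and 434 CPM, and no cooled value reached a held one. After 16 h at 38 °C, Cyr61 had stood at 187 and 57.7 CPM and Amotl2 at 368 and 255 CPM. These values lay above the cooled ones in both series. Thbs1 had stood at 89.5 and 50.5 CPM, below its cooled values.

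Ankrd1, a classical YAP target encoding an ankyrin repeat protein, was at 12.1 and 1.05 CPM against 26 and 2.99 CPM. It was called from the values but not by the fit (-1.78 ± 0.66, adjusted p = 0.0584, edgeR). The members not called from the values were Axl, Tead1 and Lats2, of which Lats2, a kinase that inhibits YAP, was lower by the fit (-0.63 ± 0.11, adjusted p = 0.00194, edgeR). Axl, a receptor kinase gene, stood at 1171 and 987 CPM against 1137 and 844 CPM, with cooled and held columns interleaved.

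The promoter of Ankrd1 is shown as that of a lower list gene that holds the TEAD recognition letters. CATTCC, searched on both strands, was found in the promoters of 5 of the 6 list genes matched in RefSeq and in 14.66% of all 32851 promoters, where a promoter runs from 250 bases before to 50 after the start. The 5 genes were Ajuba, Amotl2, Ankrd1, Axl and Lats2, of which Amotl2 and Ankrd1 were called lower from the values. Ctgf, Cyr61 and Thbs1 were not matched, so their promoters were not searched. A gene was counted when any of its promoters held the letters, while the share over all counts each promoter. Among the 53 matched genes of the 80 that were lower, 10 (18.87%) held it. The letters and the promoters printed were chosen after the values were seen, and a match is a description, not a binding site. Capitals mark the match, which reads GGAATG on this strand and begins 210 and 123 bases before the start of Ankrd1. The stretch is chr19:36119795-36120094, minus strand, RefSeq on GRCm38.p6.
Ankrd1: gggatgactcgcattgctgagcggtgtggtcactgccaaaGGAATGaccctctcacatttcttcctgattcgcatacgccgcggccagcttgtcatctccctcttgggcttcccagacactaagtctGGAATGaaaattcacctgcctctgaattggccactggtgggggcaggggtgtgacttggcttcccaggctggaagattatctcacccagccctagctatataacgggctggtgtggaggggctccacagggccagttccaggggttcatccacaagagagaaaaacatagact

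SRF targets, which encode actins, myosins and proteins that bundle or anchor actin filaments, were lower as well. Of 16 tested members 3 were called from the values and 15 were lower by the fit, against 0.786% and 19.2% of all tested genes. The list medians were -1.07 and -0.53. The median at 38 °C, set up in the same way, was -0.23 and 0.03. Myl9 encodes a regulatory light chain of myosin II (chr2:156775420-156781658, plus strand) and stood at 8.20 and 2.43 CPM after cooling against 51.3 and 26.3 CPM when held. Both cooled values were far below both held values, and the fitted difference was -2.82 ± 0.37 (adjusted p = 0.000478, edgeR). Acta2, the smooth muscle actin that marks contractile fibroblasts, was at 874 and 275 CPM against 3197 and 1572 CPM (fitted -2.09 ± 0.30, adjusted p = 0.000849, edgeR). Tagln, which encodes the actin-binding transgelin, was at 305 and 39.8 CPM against 794 and 198 CPM. Its cooled value in series 5 exceeded its held value in series 13, so the states overlapped across pairs though not within them. After 16 h at 38 °C, Myl9 had stood at 23.8 and 6.75 CPM and Acta2 at 2405 and 580 CPM. Tagln had stood at 713 and 86.2 CPM there. For each of these genes the cooled values lay below the 38 °C values in both series. Single members differed from the list median at 38 °C, where 16 h was set against 9 h. There Myl9 differed by 0.82 and -0.82, Acta2 by 1.18 and -0.16 and Tagln by 1.54 and 0.39.

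Acta1, the skeletal muscle actin gene (chr8:123891769-123894751, minus strand), is not on the SRF list but on that of muscle markers, where Myod1 and Myog were at 0. It was low in all columns, at 0.516 and 1.09 CPM against 4.30 and 9.98 CPM, and its cooled values lay below its level at 38 °C of 3.19 and 4.22 CPM. The fitted difference was -3.13 ± 0.30 (adjusted p = 8.34e-05, edgeR), and Gm20388 overlaps it on the opposite strand. Broadly used actin genes moved less, with Actb at 4813 and 5814 CPM against 10334 and 6919 CPM, with log2 differences of -1.10 and -0.25 (fitted -0.72 ± 0.08, adjusted p = 0.0002, edgeR). Srf itself was not called, at 56.2 and 51.7 CPM against 70.2 and 47.2 CPM (adjusted p = 0.20, edgeR).

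The letters bound by SRF, the CArG box, were searched on both strands in the same promoters. They were found in 6 of the 16 matched SRF list genes, in 1.63% of all promoters and in 3 of the 53 matched lower genes. Genes and promoters were counted as for the TEAD letters. The promoters of Myl9 (chr2:156775214-156775513, plus strand) and Acta1 (chr8:123894726-123895025, minus strand) are shown with the box in capitals, as lower genes with large differences that hold one; only Myl9 is on the SRF list. It begins 161 bases before the start of Myl9 and 73 before that of Acta1.
Myl9: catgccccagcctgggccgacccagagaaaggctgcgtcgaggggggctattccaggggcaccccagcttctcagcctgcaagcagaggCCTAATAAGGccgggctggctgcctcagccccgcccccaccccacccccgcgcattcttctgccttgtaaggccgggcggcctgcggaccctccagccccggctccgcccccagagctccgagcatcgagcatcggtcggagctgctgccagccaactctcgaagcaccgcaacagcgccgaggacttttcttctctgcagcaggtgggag
Acta1: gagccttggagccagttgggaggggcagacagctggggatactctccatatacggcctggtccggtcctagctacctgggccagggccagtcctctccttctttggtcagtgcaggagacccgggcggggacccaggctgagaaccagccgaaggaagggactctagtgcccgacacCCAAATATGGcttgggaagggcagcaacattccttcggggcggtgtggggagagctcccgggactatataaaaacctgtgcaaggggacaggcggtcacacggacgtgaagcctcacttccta

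Fibroblast matrix genes, encoding collagens, fibronectin, fibrillin and the enzymes that crosslink them, formed the broadest group. All 23 tested members of the list of 27 were lower in both pairs and by the fit, and 7 passed the 2-fold call in both. Of all tested genes, 28% were lower in both pairs, 19.2% by the fit and 0.786% by the 2-fold call. The list medians were -0.95 and -1.32. At 38 °C, where 16 h was set against 9 h in the same series, the medians were 0.19 in the first pair and -1.03 in the second. The second pair thus showed a difference of like size between its series at both temperatures, and the first pair did not.

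Among single matrix genes, Col12a1, a collagen that associates with fibrils, stood at 22.6 and 13.9 CPM after cooling and at 44.6 and 262 CPM when held. Its log2 difference was -0.98 in the first pair and -4.23 in the second, and its difference at 38 °C was 0.01 and -3.77. Loxl1, a crosslinking oxidase, was more even between the pairs, at 131 and 105 CPM against 371 and 328 CPM (fitted -1.61 ± 0.07, adjusted p = 4.44e-07, edgeR). At 38 °C it differed by -0.44 and -1.13. Lox, its relative, was at 770 and 489 CPM against 1425 and 2133 CPM. The major fibrillar collagen Col1a1 was at 1589 and 2536 CPM against 3123 and 5993 CPM, with log2 differences of -0.98 and -1.24.

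Fbn1, which encodes the microfibril protein fibrillin 1 and was singled out after its values were seen, stood at 452 and 525 CPM against 1175 and 1405 CPM. After 16 h at 38 °C it had stood at 444 and 491 CPM, so that 4.30% of the distance had been covered in 9 h. Its introns differed little, at 220 and 275 CPM against 276 and 267 CPM. Exon reads per intron read were 2.05 and 1.91 after cooling, 4.25 and 5.26 when held and 2.36 and 2.57 at 38 °C.

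The largest difference of all by the smaller of its pairs was that of Col11a1, a minor fibrillar collagen gene (chr3:114030540-114220718, plus strand). It stood at 4.33 and 9.87 CPM after cooling and at 46.0 and 175 CPM when held, with no overlap (fitted -4.05 ± 0.11, adjusted p = 2.25e-08, edgeR). At 38 °C it differed by 0.75 in the first pair and by -3.33 in the second. Ltbp2, an extracellular binding protein of the fibrillin family, followed at 34.6 and 70.8 CPM against 181 and 466 CPM (fitted -2.70 ± 0.11, adjusted p = 3.68e-07, edgeR). Mgp, matrix Gla protein, an inhibitor of calcification, was at 2.98 and 0.174 CPM against 20.2 and 18.9 CPM. The lower of its cooled values is near the pseudocount, and that series had 0.0849 CPM at 38 °C too.

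Gpr176, an orphan receptor gene, was at 3.72 and 0.478 CPM against 18.4 and 6.1 CPM (fitted -2.02 ± 0.49, adjusted p = 0.0115, edgeR), and Gm29232 overlaps it on its own strand, as 1700054M17Rik and Gm22651 do on the other. Agt, encoding angiotensinogen, was at 1.32 and 6.21 CPM against 9.30 and 28.4 CPM (fitted -2.92 ± 0.22, adjusted p = 1.68e-05, edgeR). Its cooled value in series 11 came near its held value in series 2. At 38 °C, Ltbp2 differed by -0.10 and -1.62, Gpr176 by 0.13 and -1.69 and Agt by 0.26 and -2.38, so that all 3 were lower by over 2-fold in the second pair at both temperatures. Fibroblast markers, a list that shares members with the matrix list, had 2 members called from the values and 10 of 11 lower by the fit. Over all tested genes these shares were 0.786% and 19.2%. Summed levels of the epithelial, macrophage and endothelial markers overlapped between the states. Muscle markers, Acta1 among them, were lower in both cooled columns, at 2.84 and 4.55 CPM against 5.74 and 12.1 CPM, and so were the adipocyte markers, at 0.0494 and 0.0638 CPM against 0.112 and 0.0847 CPM. The part of other cells in these differences was not tested.

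**Figure D3:**
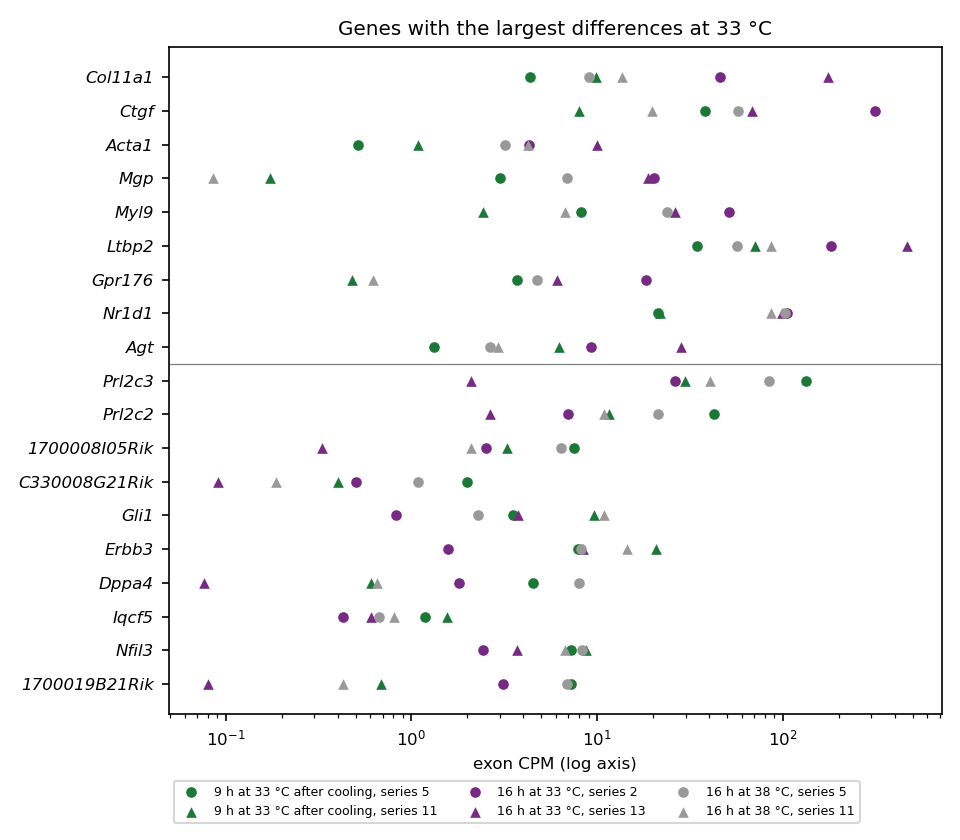
Exon level in CPM (log axis) of 9 lower and 10 higher genes with the largest differences, in the cooled columns (green), the held columns (purple) and the columns at the end of 16 h at 38 °C (grey), with circles for series 5 and 2 and triangles for series 11 and 13. Nr1d1 is low in the cooled columns only, while Gli1 and Erbb3 have cooled values near those at 38 °C.

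Clock genes differed singly. Nr1d1 encodes REV-ERB alpha, the nuclear receptor that represses the clock activator Arntl (chr11:98767932-98775333, minus strand). It stood at 21.2 and 21.8 CPM after cooling and at 106 and 99.3 CPM when held, and had stood at 103 and 86.6 CPM at the end of 16 h at 38 °C. Along the course it fell between 1 and 6 h, from 113 and 76.3 CPM to 25.1 and 24.8 CPM. The 2 series nearly coincided from 3 h on, and the fitted difference was -2.48 ± 0.39 (adjusted p = 0.00136, edgeR). Thra overlaps it on the opposite strand. Cells moved from 33 to 38 °C were also low after 9 h, at 22.4 and 14.7 CPM, so both states of 9 h after a move were low and both states of 16 h were high.

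Nfil3, which encodes a repressor of the D-box elements that DBP activates, had the opposite sign, at 7.26 and 8.67 CPM after cooling and 2.43 and 3.72 CPM when held. The fitted difference was 0.86 ± 0.30 (adjusted p = 0.0463, edgeR). Dbp itself stood at 9.86 and 13.4 CPM against 18.6 and 91.8 CPM, below both held values, which lay far from each other (fitted -2.03 ± 0.45, adjusted p = 0.00705, edgeR). Arntl, the clock activator, differed between pairs, with 17.7 and 35.5 CPM against 16.9 and 12.2 CPM, and was not called on exons (adjusted p = 0.129, edgeR). Its introns were at 48.8 and 122 CPM against 19.5 and 19.5 CPM, higher in both (fitted 1.81 ± 0.39, adjusted p = 0.0180, edgeR). Of the 9 tested clock repressors, 2 were higher and 2 lower by the fit, against 16.4% and 19.2% of all tested genes. Per1, Per2 and Cry2, parts of the negative arm of the clock, were not called, with adjusted p-values by edgeR of 0.713, 0.569 and 0.317, and their pairs had opposite signs.

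The 15 higher genes were of mixed kinds. Prl2c3 and Prl2c2 encode proliferins, placental hormones of the prolactin family that dividing 3T3 cells also make, and stood at 134 and 29.6 CPM against 26.4 and 2.10 CPM, and at 42.7 and 11.6 CPM against 7.01 and 2.66 CPM. They are near-identical copies, so the split of reads between them is uncertain. The cooled value of series 11 lay above, but not far from, the held value of series 2 for Prl2c3. The fitted differences of Prl2c3 and Prl2c2 were 2.54 ± 0.10 (adjusted p = 2.80e-07, edgeR) and 2.51 ± 0.17 (adjusted p = 6.63e-06, edgeR). At 38 °C, Prl2c3 differed by -0.29 in the first pair and 3.75 in the second.

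Gli1, a transcription factor and target gene of Hedgehog signalling, was at 3.5 and 9.61 CPM against 0.824 and 3.75 CPM (fitted 1.89 ± 0.27, adjusted p = 0.000788, edgeR). Its level at 38 °C had been 2.29 and 10.9 CPM, close to the cooled level. Erbb3, a receptor of the epidermal growth factor family, was at 7.86 and 20.8 CPM against 1.57 and 8.37 CPM, and had been at 8.22 and 14.5 CPM at 38 °C (fitted 1.51 ± 0.21, adjusted p = 0.000691, edgeR). Their 38 °C differences were small in both pairs, at -0.09 and 0.31 for Gli1 and 0.19 and 0.17 for Erbb3. Gli1 overlaps Arhgap9 and Gm47200 on the other strand, and Mir6917 lies within Erbb3.

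Of the remaining higher genes by rank, Dppa4, a nuclear protein gene known from pluripotent cells, was at 4.49 and 0.606 CPM against 1.81 and 0.0761 CPM, with series further apart than states. It was higher by 1.19 and 2.47 at 38 °C too. The noncoding or little-known genes 1700008I05Rik, C330008G21Rik and 1700019B21Rik and the gene Iqcf5 had levels at or below 7.51 CPM in all 4 columns and fitted differences between 1.31 and 2.30.

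Genes that respond to temperature were then picked by a test that left out the samples compared here. The filter, library sizes and per-gene offsets behind that test drew on all 10 samples, the compared ones among them. In the other 8 samples, 1454 genes (14.3%) had slopes of opposite sign in the courses that differed by at least 1 on the log2 scale and passed edgeR's test. Of these, 664 went up toward 33 °C and 790 went down. Among the former, 422 (63.6%) were within 1.5-fold of the held level in both pairs after 9 h, and among the latter 487 (61.6%), against 73.7% of all tested genes. The median log2 gap, signed so that a negative value lies on the side of the 38 °C level, was -0.17 for the former and -0.11 for the latter. By pair, the medians were -0.19 and -0.14 for the former and -0.22 and 0.009 for the latter. For genes that go down, the second pair thus showed no gap toward the 38 °C level. Only 17 (2.56%) and 5 (0.633%) were still short by 2-fold or more in both pairs, 1 of each kind had gone past by as much, and the rest lay between.

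**Figure D4:**
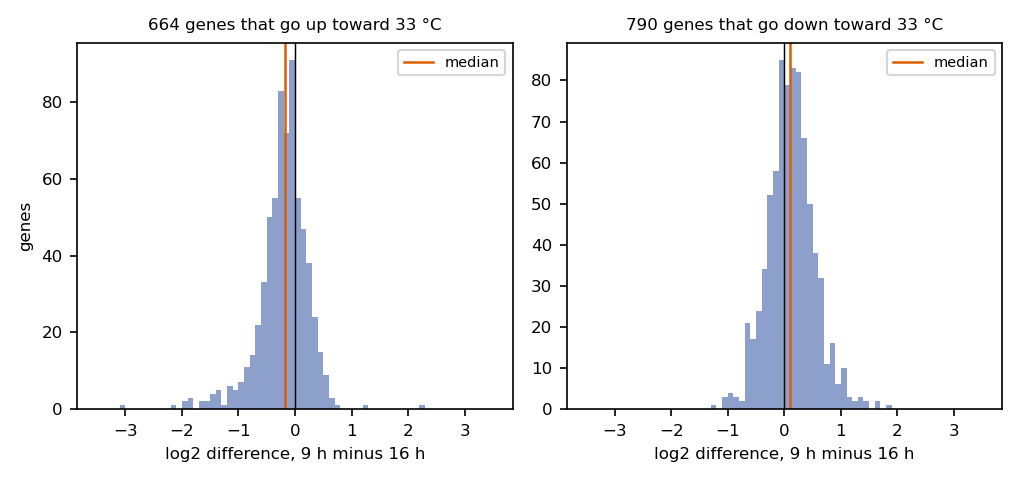
Number of genes by the mean log2 exon difference, 9 h after cooling minus 16 h at 33 °C, for the 664 genes that go up and the 790 genes that go down toward 33 °C, with the median in orange. Both medians lie close to 0 on the side of the 38 °C level, and the tail of the former reaches further down.

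Among the genes with the largest temperature responses, some had cooled and held values that overlapped. Cela1, a gene of the elastase family, was at 11.6 and 16.2 CPM after cooling and 8.68 and 13.7 CPM when held, from 1.59 and 3.69 CPM at 38 °C (fitted 0.19 ± 0.17, adjusted p = 0.385, edgeR). Nxpe4 was at 14.1 and 16.2 CPM against 10.9 and 19.4 CPM, from 1.63 and 4.48 CPM. For both, cooled and held columns were interleaved and well above the 38 °C columns. Egr1, a transcription factor gene of the immediate early class, was at 5.45 and 7.20 CPM against 8.20 and 6.10 CPM, and Egr2 at 2.35 and 3.16 CPM against 4.26 and 3.49 CPM. The states overlapped for Egr1, while both cooled values of Egr2 lay below both held ones. Neither gene passed the test (adjusted p = 0.424 and 0.150, edgeR), which does not show that the held level was reached. Cxcl5, a chemokine that draws neutrophils, was lower within each pair, at 48.1 and 13 CPM against 69.1 and 23.4 CPM (fitted -0.99 ± 0.26, adjusted p = 0.0157, edgeR). Defb41 was near 0 in series 11 and 13 and moved in opposite directions in the pairs.

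Of the 8 top genes that go down toward 33 °C, the 6 named AC092404.1, Gm13008, Mir1953, Gm15976, 4930405P13Rik and Gm17036 were noncoding and at or below 1.93 CPM in the columns compared. The pseudogene Gm7910 moved in opposite directions in the pairs, by 1.42 and -0.75. Spice1, which encodes a centriole protein, was the best measured of them, at 3.02 and 3.28 CPM after cooling and 4.31 and 8.64 CPM when held, from 11.7 and 11.9 CPM at 38 °C. It had gone below the held level in both pairs (fitted -0.95 ± 0.26, adjusted p = 0.0181, edgeR).

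A small set of temperature genes still had the 38 °C level. By the rule of a shortfall of 2-fold and a change of under 1.5-fold since the start of cooling, in both series, 12 genes that go up and 4 that go down had kept it. Fstl1 encodes a secreted glycoprotein related to follistatin (chr16:37776873-37836514, plus strand). It was at 425 and 265 CPM after cooling, 1212 and 1183 CPM when held and 313 and 264 CPM at 38 °C, with 10.9% of the distance covered (fitted -1.74 ± 0.13, adjusted p = 1.83e-05, edgeR). Enpp1, an enzyme that makes pyrophosphate and so limits calcification, was at 3.61 and 7.25 CPM, against 21.3 and 23.4 CPM when held and 4.95 and 7.0 CPM at 38 °C. In both genes the cooled columns lay with the 38 °C columns and apart from the held ones.

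Dysf, which encodes the membrane repair protein dysferlin, was at 18.9 and 17.5 CPM against 69.5 and 50.2 CPM held and 23.6 and 12.4 CPM at 38 °C. Its introns were nearly level, at 27.5 and 35.2 CPM against 30.8 and 41.6 CPM. Klk8, a serine protease gene, and Fgf7, the keratinocyte growth factor gene, kept their 38 °C level at lower abundance, with -3.92% and 27.2% of the distance covered. The other genes of this kind that go up were Fbn1, F2r, Adamts12, Masp1, Alcam, Ak5 and 2900026A02Rik. At 38 °C, 16 h against 9 h, Fstl1 differed by -0.40 and -1.61, Enpp1 by -0.44 and -1.12 and Dysf by 0.31 and -1.09, so the second pair was lower at both temperatures for each of them.

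The 4 genes that go down and had kept the 38 °C level were Sord, Cyp39a1, Gm2381 and Nfil3. Sord, which encodes sorbitol dehydrogenase, was at 92.1 and 120 CPM after cooling, 24.4 and 58.5 CPM when held and 109 and 128 CPM at 38 °C. The cooled columns lay beside the 38 °C columns and above both held ones (fitted 1.40 ± 0.09, adjusted p = 5.97e-06, edgeR). Cyp39a1, an oxysterol hydroxylase gene, was at 2.79 and 6.25 CPM against 0.340 and 3.00 CPM, with 3.24 and 5.44 CPM at 38 °C. Nfil3 ended where it began, but in between it had dropped to 3.79 and 5.03 CPM at 3 h, so its 9 h value was not a level simply kept.

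Among gene groups outside the matrix and actin, differences were small. None of the other lists of pathways had a member called from the values, except for Nr1d1 and Nfil3 among the clock repressors. Mitosis genes, which serve the spindle and chromosome segregation, had 11 of 30 members higher by the fit, against 16.4% of all tested genes, and none lower, with medians of 0.58 and 0.17. At 38 °C their medians were 0.38 and 0.08, of the same sign in each pair. Cenpa, the histone of centromeres, was at 90.7 and 84.5 CPM against 22.1 and 55.4 CPM, from 147 and 94.7 CPM at 38 °C (fitted 1.42 ± 0.21, adjusted p = 0.000849, edgeR). Kif20a, a kinesin of cell division, was at 266 and 247 CPM against 108 and 154 CPM (fitted 1.14 ± 0.16, adjusted p = 0.000715, edgeR). Of the 26 mitosis genes that were temperature genes, 12 had reached the held level and 14 lay between. Replication-dependent histone genes, whose mRNAs are made in S phase, had 4 of 31 members lower by the fit, a smaller share than the 19.2% of all tested genes, and medians of -0.33 and -0.17. In both pairs 26 were lower and 3 higher, against 28% and 28.2% of all tested genes. At 38 °C the medians of the histone list were 0.49 and 0.60. All 21 that were temperature genes had reached the held level. Many histone genes are near copies, so their separate values are uncertain.

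Cytosolic ribosomal protein genes were higher by the fit in 34 of 48 members and lower in none, by little, with medians of 0.23 and 0.22. Over all tested genes the fit called 16.4% higher and 19.2% lower. Rps2 was at 872 and 1048 CPM against 675 and 700 CPM (fitted 0.46 ± 0.04, adjusted p = 6.10e-05, edgeR), with both cooled columns above both held ones. Snora64 lies within it and Snhg9 and Snora78 on the other strand, and ribosomal protein genes have many processed copies, so reads may be shared. At 38 °C the list medians were -0.24 and 0.27, of opposite sign in the pairs.

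Of 26 tested heat shock genes 6 were higher and 2 lower by the fit, against 16.4% and 19.2% of all tested genes, and the medians were 0.05 and 0.23. Only 8 of them were temperature genes, of which 6 had reached the held level, beside 61.6% of all temperature genes that go down and 73.7% of all tested genes within 1.5-fold of it. Hspa8, the constitutive HSP70, was below the held level, at 975 and 614 CPM against 1517 and 995 CPM, from 2434 and 1587 CPM at 38 °C (fitted -1.06 ± 0.27, adjusted p = 0.0149, edgeR). Hsp90aa1, the inducible HSP90, was still above within each pair, at 1298 and 899 CPM against 1093 and 502 CPM, from 2748 and 1711 CPM, and did not pass the test (0.42 ± 0.20, adjusted p = 0.125, edgeR). Cryab, a small heat shock protein gene, was lower, at 217 and 224 CPM against 328 and 306 CPM (fitted -0.52 ± 0.08, adjusted p = 0.00118, edgeR).

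Chaperones of the endoplasmic reticulum, which fold secreted proteins, had 4 of 18 members higher and 8 lower by the fit, against 16.4% and 19.2% of all tested genes, with medians of -0.01 and -0.58. At 38 °C their medians were 0.29 and -0.49, so the second pair was lower by a like amount at both temperatures. Hspa5, the HSP70 of that compartment, was at 1036 and 830 CPM against 1438 and 1424 CPM (fitted -0.60 ± 0.20, adjusted p = 0.0398, edgeR). Hsp90b1, its HSP90, had the other sign in the first pair, at 1238 and 882 CPM against 735 and 888 CPM (fitted 0.41 ± 0.06, adjusted p = 0.00109, edgeR). Genes of cholesterol synthesis and uptake went in opposite directions in the pairs, with medians of 0.72 and -0.48. Hmgcs1, an early enzyme of that pathway, was at 299 and 257 CPM against 95.1 and 342 CPM, so the cooled columns lay between the held ones.

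**Figure D5:**
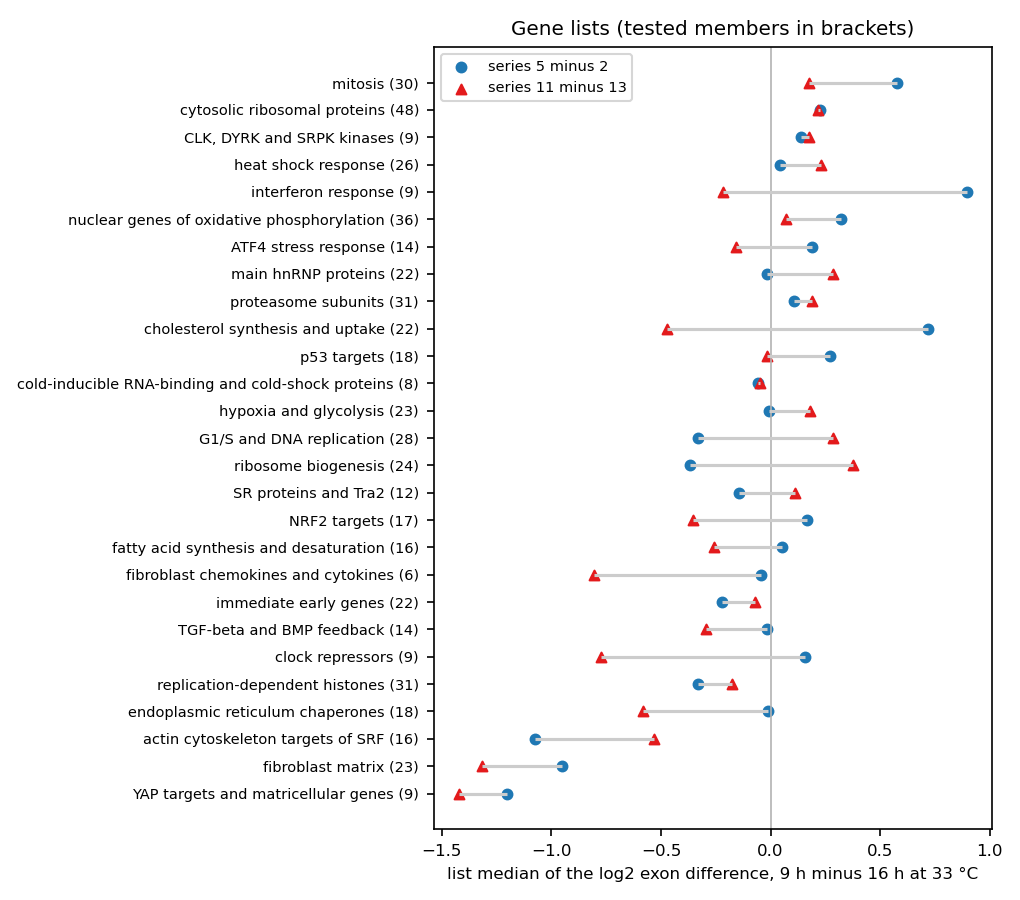
Median log2 exon difference, 9 h after cooling minus 16 h at 33 °C, over the tested members of each gene list, in the pair of series 5 and 2 (circles) and the pair of series 11 and 13 (triangles). Lists with 6 or more tested genes are shown, without marker lists; the YAP list lies lowest in both pairs, and the cholesterol and interferon lists have medians on opposite sides of 0.

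On introns, which follow unspliced RNA, 50 of 9353 tested genes (0.535%) were called from the values, 26 higher (0.278%) and 24 lower (0.257%). The fit called 1589 (17%), 1330 higher (14.2%) and 259 lower (2.77%). All intron values were scaled by the exon library sizes, and the median gene was higher by 0.22 on this scale after cooling (0.21 with DESeq2 size factors), so these counts are to be read against that shift. Several of the lower genes were also lower on exons. The introns of Col11a1 stood at 4.09 and 8.73 CPM against 21.4 and 70.4 CPM (fitted -2.84 ± 0.14, adjusted p = 4.89e-06, edgeR). Those of Acta2 were at 28.8 and 9.1 CPM against 114 and 56.3 CPM. Ctgf and Mgp introns were low throughout, at or below 3.37 CPM. The YAP list was lower on introns by the fit in 6 of 9 members, the matrix list in 13 of 23 and the SRF list in 6 of 16.

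Among the genes higher on introns, Gli1 was at 1.21 and 3.84 CPM against 0.190 and 1.44 CPM (fitted 1.99 ± 0.23, adjusted p = 0.00142, edgeR). Hyal1, a hyaluronidase gene, was at 1.04 and 1.63 CPM against 0.274 and 0.518 CPM, with all cooled values above all held ones (fitted 1.37 ± 0.23, adjusted p = 0.00793, edgeR). Prl2c2 and Prl2c3 were higher on introns as on exons. Kpna1, an importin gene, had the largest value of all, at 138 and 5151 CPM against 46.5 and 37.6 CPM, while its exons differed by -0.27 and 0.11. Its intron counts, 118468 in the cooled column of series 11, were high in the same columns as AY036118 (582012 there), also in series 13 at 1 h of warming, with 31437 and 138496. The part of ribosomal RNA in this value was not tested, and the fit did not call it (adjusted p = 0.389, edgeR).

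The ratio of exon to intron reads was lower after cooling for most genes, with a median of -0.18 in the first pair and -0.28 in the second. Introns also took more of all counts in the cooled columns (35.5% and 40.6%) than in the held columns (32.4% and 34.5%). From the values 58 genes (0.62%) were called, 3 higher (0.0321%) and 55 lower (0.588%). The fit called 695 (7.43%), 30 higher (0.321%) and 665 lower (7.11%). Both sets of counts are to be read against this shift of the whole library. Of the matrix genes 17 of 23 were lower by the fit, with a list median of -0.71, against -0.23 over all tested genes. Sod3, an extracellular superoxide dismutase gene, had 6.42 and 8.31 exon reads per intron read after cooling and 18.6 and 22.7 when held, with 10.0 and 9.69 at 38 °C (fitted -1.57 ± 0.22, adjusted p = 0.00123, edgeR). C1s, a complement protease gene, had 9.23 and 6.35 against 35.0 and 19.2 (fitted -1.46 ± 0.26, adjusted p = 0.00355, edgeR). Klk10, of the kallikrein family, had 4.45 and 4.69 against 13.7 and 27.9 (fitted -2.58 ± 0.45, adjusted p = 0.00355, edgeR). At 38 °C the ratio had been 14.0 and 10.6 for C1s and 15.1 and 7.58 for Klk10. These lay above the cooled ratios, with Klk10 introns at only 0.030 and 0.158 CPM at 38 °C.

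Acta1 was also among the lowest ratios from the values and was not called by the fit (adjusted p = 0.301, edgeR). Other matrix genes, named after their values were seen, also had a lower ratio than when held. Col5a1 had 1.32 and 1.09 exon reads per intron read against 2.58 and 2.59, and 1.25 and 1.2 at 38 °C (fitted -0.92 ± 0.12, adjusted p = 0.00123, edgeR). Mmp2, a gelatinase gene, had 3.70 and 3.39 against 7.42 and 7.40 (fitted -1.28 ± 0.15, adjusted p = 0.000783, edgeR). At 38 °C its ratio had been 5.14 and 5.05, above the cooled values, while Col5a1 lay near its 38 °C ratio. The exon level of Mmp2 was 390 and 539 CPM against 638 and 909 CPM, lower by less than its ratio. None of the tested YAP or SRF list members had a lower or higher ratio by the fit, with list medians of -0.26 and -0.38. The 3 genes with a higher ratio were Gm16343, Rmi2 and Gm12415, and the fit called the first of them (1.94 ± 0.45, adjusted p = 0.0164, edgeR). Rmi2, a subunit of a complex that dissolves DNA crossovers, had 0.154 and 0.133 exon reads per intron read against 0.0577 and 0.0623, with 0.453 and 0.390 at 38 °C.

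The same pairs of series were set against each other at 38 °C, as 16 h at 38 °C minus 9 h after warming. There 22 genes (0.216%) were called from the values. Of the 95 genes called at 33 °C, 3 were called there in the same direction, Dppa4 and 1700008I05Rik among them, 2 in the opposite direction, Nr1d1 among them, and 90 not at all. Dbp, which was not called from the values at 33 °C, was lower after 9 h of warming, as Nr1d1 was, at 14.7 and 19.5 CPM against 48.5 and 83.2 CPM. Over the 9 h of its course Nr1d1 fell within each series. It went from 103 to 21.2 CPM in series 5 and from 86.6 to 21.8 CPM in series 11. In the warming course it went from 106 to 22.4 CPM in series 2 and from 99.3 to 14.7 CPM in series 13. Hours since the move and hours since seeding cannot be told apart for these values, and the part of series was not tested.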

How the data were processed

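The labels' protocols describe rRNA-depleted total RNA from 10 samples of NIH3T3 cells, made into stranded libraries and read from both ends. The submitters' processing notes name STAR, bedtools and the mm10 build, without versions. The annotation release, strand use in counting and any rule for shared reads were not given in the sources used here. Estimated counts for exons and introns of 38087 genes fill the tables the authors deposited, although these are named as RPKM: column totals vary, and 22.7% of the exon values are whole within 1e-06. They were rounded to whole numbers. All of the 22 exon columns were matched to a sample. Series 10, with 2 exon columns, was not used.

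Tested genes (10174) reached 1 in mean exon RPKM, with GENCODE M21 lengths found for 95.3% of genes. Introns and ratios were tested for 9353 of them, which reached 0.05 in mean intron RPKM. CPM used TMM library sizes of the exon columns. In edgeR 4.0.16 (R 4.3.3), the columns of a sample were summed with a per-gene offset to an equal mix of series, and each course was given its own intercept and its own slope on log2(h + 1), leaving 6 residual degrees of freedom. For the ratio, exon and intron counts entered 1 model and the contrast was crossed with read type. Standard errors are the fitted difference over the square root of the F statistic. Calls used an adjusted p of 0.05. The scripts were tested on simulated data. Alternatives included DESeq2 1.42.0, other scalings, filters and pseudocounts, each pair alone, other time scales and leaving out samples. Named genes were the Cirbp and Rbm3 genes, the largest differences in each direction for exons, introns and ratio, the largest temperature genes and the largest members of each list, of which some are not reported here. The members compared, the gene lists and the rules were chosen with earlier results of these data known. P-values measure only the spread between these samples, which may be technical.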

Additional observations from a re-analysis of the deposited data

Results flagged for a closer look

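Nr1d1 differed by -2.24 on the log2 scale (mean of the pairs) between 9 h and 16 h at 33 °C, and by 2.38 between 16 h and 9 h at 38 °C. Both pairs were on one side of 0 at 33 °C and on the other at 38 °C, which brought it here. The state of 9 h after a move had the lower level at each temperature. The difference between the temperatures was not tested.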

How the results depend on the processing

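With 1 sample a state the counts from values are the most sensitive. The 95 genes called on exons became 233 when the columns were summed, 514 in series 5 and 2 alone, 384 in series 11 and 13 alone and 250 without the filter on low values. For introns, 50 became 109, 487, 235 and 176, and for the ratio 58 became 89, 145, 167 and 202, in the same order. DESeq2 size factors and a pseudocount of 0.5 kept these counts within 1.5 times. The fitted exon count of 3617 lay between 3011 and 4051 under the alternatives that kept all samples. The fitted intron count of 1589 became 925 with a quadratic time term and 108 with 2 groups of 2 samples. The fitted ratio count of 695 became 1178 with DESeq2, 180 in series 5 and 2 alone, 200 in series 11 and 13 alone and 1 with 2 groups of 2 samples (1684 at an unadjusted p under 0.05). Leaving out 1 sample gave 2288 to 3649 genes for exons, 741 to 1675 for introns and 342 to 652 for the ratio. The lowest values came without the 6 h sample of cooling for exons and without the 1 h sample of warming for the others. Intron counts also dropped by over 1.5 times without cooling at 3 h (1001) or 6 h (998) or warming at 3 h (994), 6 h (930) or 9 h (794), and ratio counts without cooling at 3 h (433) or 6 h (388) or warming at 6 h (456). With series 5 alone for the 9 h sample, an alternative chosen after seeing the AY036118 reads, the fits called 3587, 1130 and 547. Temperature genes short of the held level, 22 in all, became 123 in series 5 and 2, 52 in series 11 and 13 and 7 when selected with a difference of at least 2, which took 280 genes in place of 1454, with 129 in place of 909 at the held level. Among single genes 2631 settings kept sign and side of the threshold, 138 lost and 89 gained a call, 56 moved and 11 reversed. Reversed in series 11 and 13 alone were Gm7910 (-0.99), Ccne1 (0.19), Idi1 (-0.38), Stard4 (-0.0586), Scd2 (-0.19), Acsl3 (-0.47), Fosl1 (0.0774) and Bop1 (0.0612), and in series 5 and 2 alone Srpk1 (-0.0129), Smad6 (0.13) and Krt14 (0.20). The cause was not tested. No paired analysis was possible because each state has 1 sample and the series of the courses share no number. A CPM near the pseudocount, as for Mgp in series 11, limits the size of a difference.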

Other observations

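Interferon response genes, which answer to viral RNA, had a median of 0.90 in the first pair and -0.22 in the second, and none of the 9 tested was called by the fit. At 38 °C the medians of this list were 0.32 and -0.76. Ribosome biogenesis genes had medians of -0.37 and 0.37, with 2 members of 24 higher and 2 lower by the fit, and at 38 °C -0.31 and 0.84. For genes of G1/S and DNA replication the medians were -0.33 and 0.29, with 1 of 28 higher and 5 lower. Nuclear genes of oxidative phosphorylation had the same sign in both pairs, with medians of 0.32 and 0.07 and 12 of 36 members higher and 2 lower by the fit. The counts of these lists are to be read against 16.4% of all tested genes higher and 19.2% lower by the fit.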
